A study of Mus musculus with 6 samples.

Results

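The 9 genes described here encode ligands and signalling partners through which dendritic cells instruct T cells: Cd40, Cd80, Cd83, Cd86, Cd274, Pdcd1lg2, Icosl, Tnfsf4 and Tnfsf9. They were listed by name, though with earlier results of these data known. Each probe set of the array whose annotation gave exactly 1 gene symbol, and that symbol one of the 9, was taken, which gave 16 of 45101 probe sets and 9 of 18194 named genes. Cd80 had 4, Cd40 had 3, Cd86 and Icosl had 2 each, and each of the others had 1. The arrays were Affymetrix Mouse Genome 430 2.0 arrays, 1 per sample, and a probe set is a group of short probes read together as 1 signal. The 3 Ly6G+ DC samples were CD11c+, MHC II+ and Ly6G+ cells, and the 3 Ly6G- DC samples were CD11c+ and MHC II+ cells without Ly6G. Both were sorted on day 6 from C57BL/6 bone marrow cultures fed 10 ng/ml of GM-CSF, a growth factor that yields dendritic cells in culture. Per the labels both kinds of cell were taken from the same cultures, but no label ties an array to a culture, so the groups may be matched in a way that a comparison of the groups alone does not use. The labels give neither the age of the mice nor whether animals were pooled. Whether the samples of either group stem from separate cultures is not said, so each p-value reflects only the spread among these samples, part of which may be technical. Ly6G is a surface protein of neutrophils, and the comparison asks how dendritic cells with it differ from those without.

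A T cell needs, beside its antigen, a second signal from the cell that shows the antigen. CD80 and CD86 give it through CD28 and can also bind the inhibitory receptor CTLA-4. ICOSL, OX40L (Tnfsf4) and 4-1BBL (Tnfsf9) act on activated T cells, while PD-L1 (Cd274) and PD-L2 (Pdcd1lg2) restrain T cells through PD-1. CD40 works in the other direction, receiving CD40 ligand from the T cell, and CD83 is a marker of mature dendritic cells that helps to keep MHC class II and CD86 at the cell surface.

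The arrays stood apart in a way that crossed the sorted groups. Values per array are given in numbered order, 1 to 3, throughout. The sample titles also gave both arrays numbered 1 the array name Mouse430_2_2 and the others Mouse430_2. What these names stand for is not said in the titles. Transcripts spiked in just before hybridization had geometric mean signals of 1648, 6688 and 2039 on the Ly6G+ arrays, against 1529, 12321 and 12842 on the Ly6G- arrays. Ly6G+ DC 2, Ly6G- DC 2 and Ly6G- DC 3 thus formed a high side and the other 3 arrays a low side. Actb was read near both ends, and the log2 ratio of its 3' to its 5' signal, a measure of RNA or cDNA length, was 1.99 to 2.78 on the high side and 0.22 to 0.57 on the low side. Its mean was 0.94 ± 0.93 over the Ly6G+ arrays, against 1.90 ± 1.46 over the Ly6G- arrays (SD, n = 3 each; exact permutation test, two-sided, p = 0.4, with 0.1 the smallest p the design allows). Of the genes listed for the sort, H2-Aa of MHC class II and Cd74 were the 2 brightest. Cd74 encodes the invariant chain and was not itself a sort marker. H2-Aa and Cd74 had mean signals of 32917 ± 25518 and 23251 ± 12329.6 over the Ly6G+ arrays, against 84673 ± 54183 and 45085 ± 17469 over the Ly6G- arrays (SD, n = 3 each). Ly6g itself was not named in the annotation used.

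None of the ligand genes passed the test between the sorted populations, although nearly all of their probe sets had lower mean log2 signals in Ly6G+ DC. Probe sets brighter than the 40th percentile of the array on 3 or more of the 6 arrays were tested, here called kept, and these were 15 of the 16. With limma across all 28254 kept probe sets, 0 of the 15 were called at an adjusted p under 0.05, against 0% of all kept probe sets. Their smallest adjusted p was 0.836. At an unadjusted p under 0.05, 1 of the 15 (Cd83) was lower in Ly6G+ DC, against 2.87% of all, and 0 were higher, against 2.75%. Groups did not overlap, with Ly6G+ DC lower, for the same 1 probe set, where 7.24% of all did so. With that side of the controls as a block, 0 of the 15 were called (0% of all), and 2 (Cd83 and 1 probe set of Cd86) were lower at an unadjusted p under 0.05, against 3.22% of all. In these bulk samples, fewer cells of a type and less RNA per cell cannot be told apart.

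Log2 fold changes, given throughout as Ly6G+ over Ly6G- on log2(signal + 16), were negative for 14 of the 15 kept probe sets, and for 55% of all kept probe sets. The median over the 15 was -0.35 and over all kept probe sets -0.06. The choice of scaling moved all genes together: with each array set to a common median the median of all was 0.23, and 9 of the 15 were negative. With the side as a block all 15 were negative, from -0.90 to -0.19, with a median of -0.46, against -0.02 for all kept probe sets. Within the low side, where 2 Ly6G+ arrays met 1 Ly6G- array, 15 of 15 were negative, and within the high side, where 1 met 2, 13 of 15. The single low-side Ly6G- array, Ly6G- DC 1, had a median signal of 79.8, against 69.0 and 56.0 on the low-side Ly6G+ arrays. It was the highest Ly6G- array for 10 of the 15, and for 34.8% of all. The share of all kept probe sets with a negative value was not counted with the block or within a side. Measured against the median of all, the ligand median was -0.28 as deposited, -0.43 after quantile normalization and -0.26 after median scaling. Of the 15, 14, 13 and 14 lay below the median of all. Median scaling shifts nearly all values by about the same amount. Here and below, its likeness to the deposited scaling on this measure was therefore mostly fixed in advance. The size also rested on single arrays. Leaving out Ly6G+ DC 2 gave a ligand median of -0.22, leaving out Ly6G- DC 1 gave -0.18, and leaving out Ly6G- DC 2 gave -0.58. The 95% intervals of the log2 fold changes spanned 0 for every kept ligand probe set except that of Cd83.

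**Figure D1:**
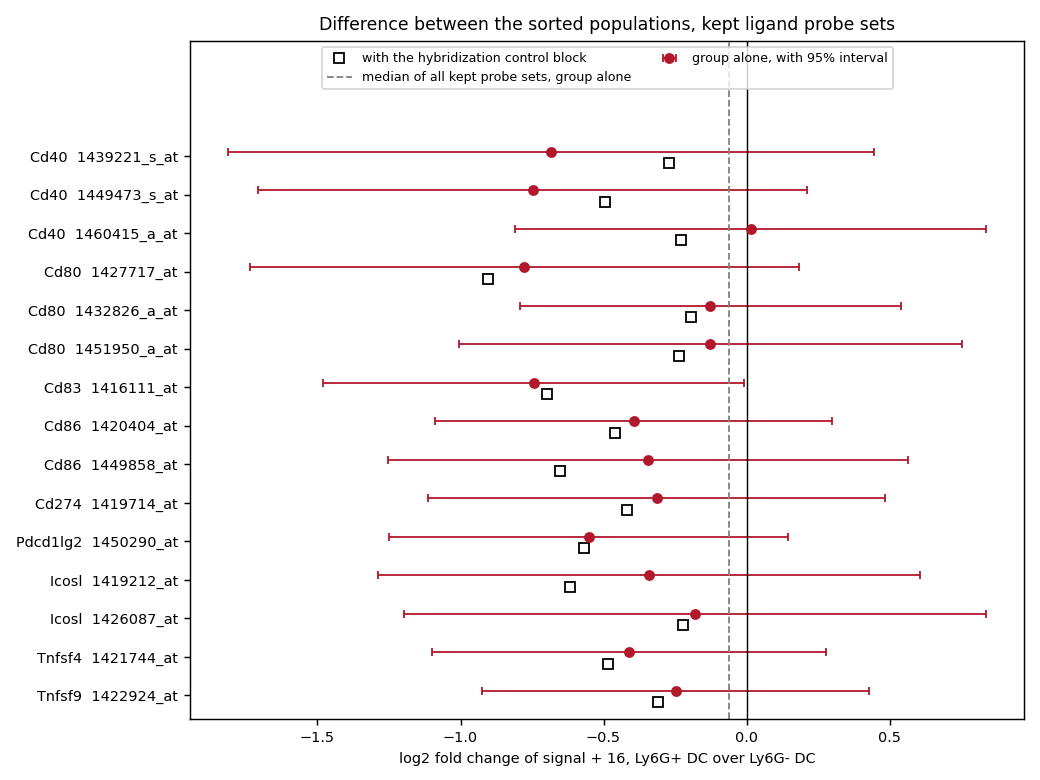
Log2 fold change of signal + 16, Ly6G+ DC over Ly6G- DC (x axis), for the 15 kept ligand probe sets (rows). Red points are the fit of the group alone with limma's 95% interval, white squares the fit that has the hybridization control side as block, and the dashed line the median of all kept probe sets (-0.06). The interval of Cd83 alone stops short of 0, at -0.0085.

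Cd83 was the 1 ligand gene whose groups did not overlap. Its probe set, 1416111_at, had signals of 3762, 4851 and 3658 on the Ly6G+ arrays, against 7143, 5064 and 8711 on the Ly6G- arrays. All 3 Ly6G+ arrays lay below all 3 Ly6G- arrays, but the gap between Ly6G+ DC 2 and Ly6G- DC 2 was small. The means were 4090.5 ± 661 over the Ly6G+ arrays, against 6973 ± 1829.8 over the Ly6G- arrays (SD, n = 3 each). The log2 fold change was -0.74 ± 0.33 (SE), a signal 1.67-fold higher in Ly6G- DC, with a 95% interval of -1.48 to -0.0085 and an adjusted p = 0.836 by limma. It was -0.94 within the low side and -0.45 within the high side. With the side as a block it was -0.70 ± 0.27 (adjusted p = 0.747 by limma). It was negative in all 18 alternatives run, from -0.96 to -0.41. The unadjusted p was not under 0.05 in 8 of the 18: with median scaling, without the filter, without the intensity trend and in 5 of the 6 fits that left out 1 array, all but that without Ly6G- DC 2.

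Cd86, the CD28 ligand that dendritic cells carry at rest and raise on maturation, was read by 2 probe sets. Signals of 1420404_at were 1251, 1519.6 and 1202 on the Ly6G+ arrays, against 2412, 1341 and 1618 on the Ly6G- arrays. Here Ly6G- DC 2 fell inside the Ly6G+ range, and Ly6G- DC 1 was the high array. The log2 fold change was -0.39 ± 0.31 (SE; 95% interval -1.09 to 0.30), with -0.97 within the low side and 0.044 within the high side. For 1449858_at the signals were 1299, 712 and 1048 on the Ly6G+ arrays, against 2151, 746 and 1248 on the Ly6G- arrays, so that the groups overlapped again. Its log2 fold change was -0.35 ± 0.41, or -0.65 ± 0.28 with the hybridization control block (adjusted p = 0.747 by limma). Both probe sets thus placed Ly6G- DC 1 highest and Ly6G- DC 2 lowest among the Ly6G- arrays, and the value of 1449858_at was 0.036 without Ly6G- DC 1.

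Cd80, the other CD28 ligand, which also binds PD-L1, was read by 4 probe sets with unlike values. Signals of 1427717_at were 131, 99.5 and 58.8 on the Ly6G+ arrays, against 267, 111 and 161 on the Ly6G- arrays. Only Ly6G+ DC 1 reached into the Ly6G- range, and the log2 fold change of -0.78 ± 0.43 (SE; 95% interval -1.74 to 0.18) was the most negative among the kept ligand probe sets. For 1451950_a_at the signals were 611, 382 and 255 on the Ly6G+ arrays, against 575, 284 and 480.1 on the Ly6G- arrays, and for 1432826_a_at they were 277, 299.6 and 397 on the Ly6G+ arrays, against 399, 317 and 343 on the Ly6G- arrays. Neither separated the groups, and both had a log2 fold change of -0.13, with standard errors of 0.40 and 0.30. With median scaling these became 0.19 and 0.19. The last probe set, 1454372_at, was at or below the 40th percentile on 5 arrays and was not kept, with signals of 7.07, 14.1 and 5.21 on the Ly6G+ arrays, against 9.46, 105 and 16.4 on the Ly6G- arrays.

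Cd40, the receptor through which helper T cells license dendritic cells, was read by 3 probe sets that disagreed. Signals of 1449473_s_at were 121, 446 and 273 on the Ly6G+ arrays, against 370.4, 415 and 503 on the Ly6G- arrays, a log2 fold change of -0.75 ± 0.43 (SE). Those of 1439221_s_at were 135, 407 and 253 on the Ly6G+ arrays, against 201, 416 and 743 on the Ly6G- arrays, with -0.68 ± 0.51. Those of 1460415_a_at were 325, 189 and 283 on the Ly6G+ arrays, against 383, 178 and 246 on the Ly6G- arrays, with 0.01 ± 0.37, the only positive value among the kept ligand probe sets. Their values also went with the hybridization control side, and its part in them was not tested. The probe sets ending in _s_at, a suffix for probes that may match more than one transcript, were higher on every high-side array than on every low-side array, with 415 to 503 on the high and 121 to 370.4 on the low side for 1449473_s_at. The third ran the other way, with 178 to 246 on the high and 283 to 383 on the low side. Of the 15 kept ligand probe sets, 2 (13.3%) were higher and 1 (6.67%) lower on every high-side array, which are those of Cd40. Among all kept probe sets 17.3% were higher and 11.5% lower on every high-side array, so such a split was not particular to Cd40.

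With that side as a block, the 3 Cd40 values were -0.50 ± 0.37, -0.27 ± 0.36 and -0.23 ± 0.30 (SE). They lie closer together than in the fit of the group alone and share a sign, as all 15 kept ligand probe sets did. Within the low side they were -0.96, -0.11 and -0.32, and within the high side -0.033, -0.44 and -0.14, in the same order of 1449473_s_at, 1439221_s_at and 1460415_a_at. Without Ly6G+ DC 1, the array lowest for both _s_at probe sets, 1449473_s_at and 1439221_s_at had -0.28 and -0.30, and without Ly6G- DC 3, the highest array, 1439221_s_at had -0.25. Whether the 3 probe sets read the same transcripts was not tested.

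**Figure D2:**
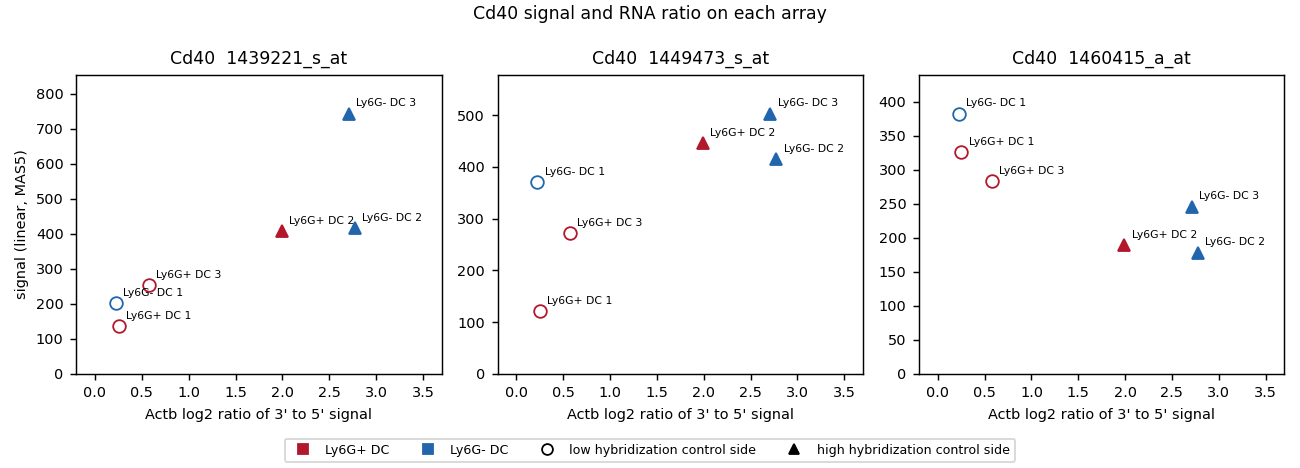
Signal of the 3 Cd40 probe sets (y axes, linear from 0) against the log2 of Actb's 3' signal over its 5' signal (x axes) on the 6 arrays, red for Ly6G+ DC and blue for Ly6G- DC, open circles for the low and triangles for the high hybridization control side. On the high side the probe sets ending in _s_at read higher (407 to 743 for 1439221_s_at) and 1460415_a_at lower (178 to 246).

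The PD-1 ligands Cd274 and Pdcd1lg2 are neighbours on chromosome 19. Their upstream sequences are shown because these ligands of 1 receptor lie next to each other and were read on the same arrays, and they are RefSeq's of build GRCm38.p6, each the 250 bases before the annotated start on the + strand, from chr19:29367188-29367437 and chr19:29410669-29410918. Capitals mark a match to a searched motif on either strand.
Cd274: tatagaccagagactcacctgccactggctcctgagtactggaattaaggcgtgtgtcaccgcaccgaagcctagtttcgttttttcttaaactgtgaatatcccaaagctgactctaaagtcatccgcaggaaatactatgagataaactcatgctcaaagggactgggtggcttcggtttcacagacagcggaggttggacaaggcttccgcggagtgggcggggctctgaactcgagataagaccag
Pdcd1lg2: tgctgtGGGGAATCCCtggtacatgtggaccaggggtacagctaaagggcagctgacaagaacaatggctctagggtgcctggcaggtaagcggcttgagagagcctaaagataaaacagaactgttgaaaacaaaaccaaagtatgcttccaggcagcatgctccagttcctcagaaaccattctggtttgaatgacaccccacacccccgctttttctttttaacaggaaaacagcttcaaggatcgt
The motifs were the NF-kB consensus, the STAT site TTCNNNGAA and the AP-1 site TGANTCA. These are found in 3.9%, 7.02% and 6.75% of 32851 promoter windows of the same length. The Pdcd1lg2 window held 1 match, the NF-kB consensus as GGGGAATCCC starting 244 bases before the start, and the Cd274 window held no match. A match is a string of letters and not a measured site. Sequences were matched for 4 of the 9 genes, the others being Cd80, with 1 AP-1 match, TGATTCA, starting 42 bases before its start, and Icosl, with no match.

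Pdcd1lg2, which encodes PD-L2 and is largely restricted to dendritic cells and macrophages, had signals of 1589.6, 1441 and 1279 on the Ly6G+ arrays, against 2224, 1507 and 2784 on the Ly6G- arrays. Ly6G- DC 1 and 3 lay above every Ly6G+ array, and Ly6G- DC 2 lay inside the Ly6G+ range. The log2 fold change was -0.55 ± 0.31 (SE; 95% interval -1.25 to 0.15; adjusted p = 0.836 by limma), with -0.64 within the low and -0.50 within the high side. Cd274, which encodes the more widely made PD-L1, had 5798, 3414 and 2991 on the Ly6G+ arrays, against 5671, 3645 and 5521 on the Ly6G- arrays. Its highest array of all was Ly6G+ DC 1, and the log2 fold change was -0.31 ± 0.36, with a 95% interval of -1.11 to 0.48 and 0.016 after median scaling. The interval of neither gene shows the sorted populations to be alike, and a difference between the 2 genes was not tested.

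Icosl, the ligand of the T cell receptor ICOS, had 638, 248 and 295 on the Ly6G+ arrays, against 702, 456 and 307 on the Ly6G- arrays for 1419212_at. On both sorts the array numbered 1 was highest, and the groups overlapped. The log2 fold change was -0.34 ± 0.43 (SE), or -0.62 ± 0.35 with the hybridization control block (adjusted p = 0.800 by limma). It was -0.084 without Ly6G+ DC 2, -0.049 without Ly6G- DC 1 and -0.74 when Ly6G+ DC 1 was left out. The second Icosl probe set, 1426087_at, was dim, at or below the 40th percentile on 3 arrays, with 44.6, 52.5 and 67.5 on the Ly6G+ arrays, against 71.5, 54.5 and 65.9 on the Ly6G- arrays. Its log2 fold change of -0.18 ± 0.46 became 0.073 after quantile normalization and 0.085 after median scaling.

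Tnfsf4 and Tnfsf9, the tumour necrosis factor family ligands of OX40 and 4-1BB, prolong T cell responses. Signals of Tnfsf4 were 295, 274 and 273 on the Ly6G+ arrays, against 457, 279.5 and 423 on the Ly6G- arrays. The means were 281 ± 12.2 over the Ly6G+ arrays, which lay close together, against 386 ± 94.1 over the Ly6G- arrays (SD, n = 3 each). Ly6G- DC 2 was again inside the Ly6G+ range. The log2 fold change was -0.41 ± 0.31 (SE; 95% interval -1.10 to 0.28). Tnfsf9 had 411, 311 and 307 on the Ly6G+ arrays, against 446, 324 and 463 on the Ly6G- arrays, with a log2 fold change of -0.25 ± 0.30, which was 0.071 after median scaling. Ly6G- DC 1 and 3 were above every Ly6G+ array for both genes.

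**Figure D3:**
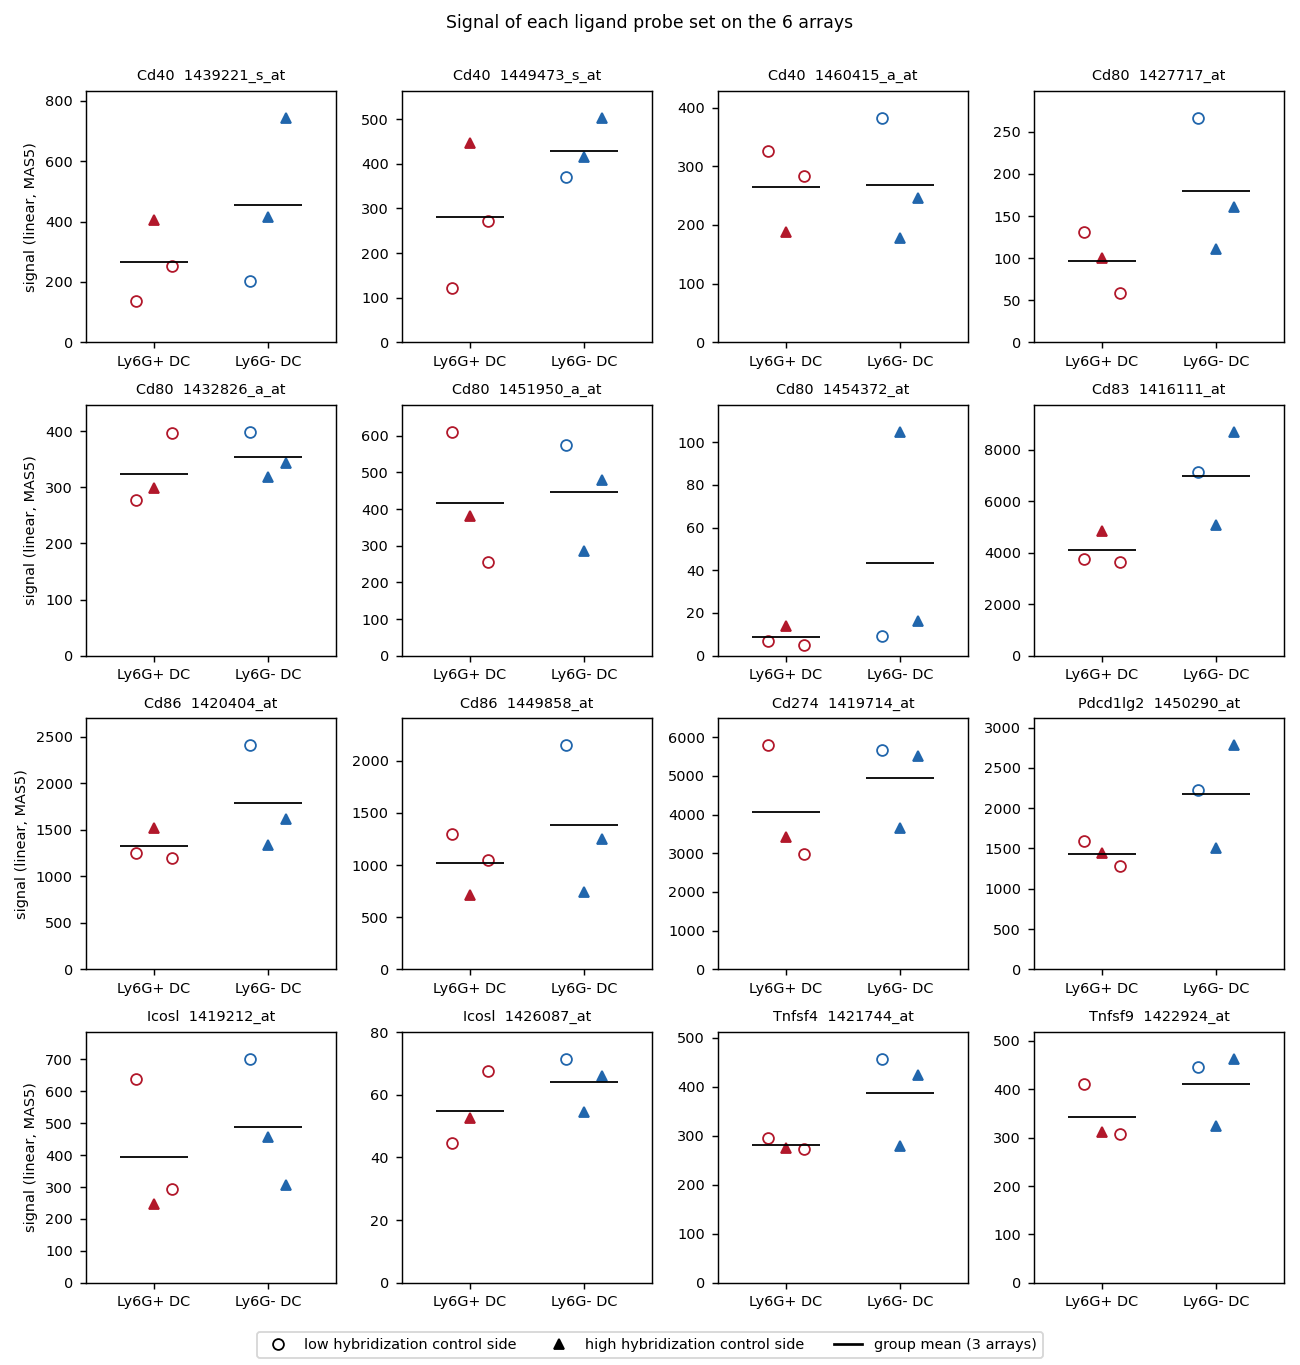
Signal (linear, y axes from 0) of each of the 16 ligand probe sets on the 3 Ly6G+ DC arrays (red) and the 3 Ly6G- DC arrays (blue), in numbered order within a group. Open circles and triangles mark the low and high hybridization control sides, and bars the mean of 3 arrays. Cd83 is the probe set without overlap between groups, at 3658 to 4851 in Ly6G+ DC and 5064 to 8711 in Ly6G- DC.

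The Ly6G- samples did not read alike for these genes. Ly6G- DC 2 was the lowest Ly6G- array for 12 of the 15 kept ligand probe sets (80%), while it was so for 30.1% of all kept probe sets. It was the highest for 0 of the 15 and for 31.1% of all. It lay at or under the highest Ly6G+ array for 13 of the 15, where Ly6G- DC 3 did so for 7 and Ly6G- DC 1 for 4. The shares of all kept probe sets were 66.7%, 63.7% and 71.7%. The ligand probe sets are not independent of each other, and this pattern was chosen after the values were seen. On log2(signal + 16), centred per probe set, the median ligand value was -0.17 on Ly6G- DC 2 and 0.44 and 0.31 on Ly6G- DC 1 and 3, against -0.13, -0.24 and -0.28 on Ly6G+ DC 1 to 3.

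**Figure D4:**
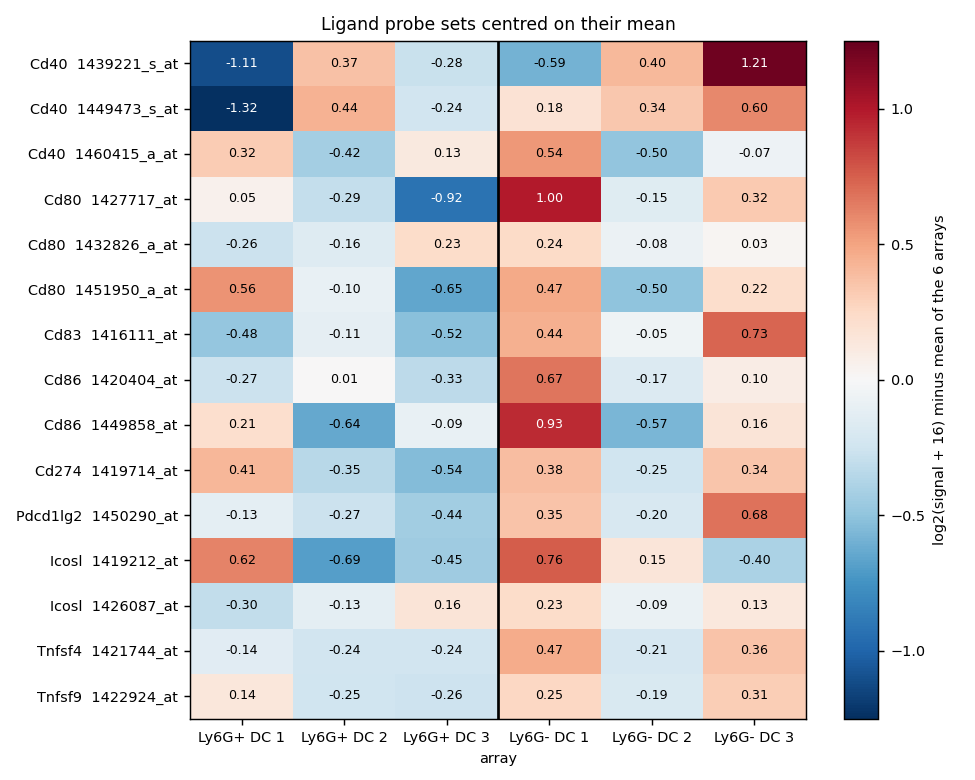
Log2(signal + 16) of the 15 kept ligand probe sets (rows) on the 6 arrays (columns), each minus its mean over the 6 arrays, red above and blue below. The Ly6G- DC 2 column is negative for most rows, as are the Ly6G+ columns, while Ly6G- DC 1 and 3 are mostly positive (medians -0.17, 0.44 and 0.31).

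Other ligands that act on T cells did not all run the same way. Of 18 listed, 11 had a kept probe set, each gene being read by its brightest, and 0 were called by limma. At an unadjusted p under 0.05, 1 was higher (2.75% of all) and 1 lower (2.87% of all), and the median log2 fold change was -0.27, which turned to 0.0055 after median scaling (-0.21 and -0.23 against the median of all in these scalings). Vsir, which encodes the inhibitory ligand VISTA, was the one above: 2683, 2143 and 3227 on the Ly6G+ arrays, against 1731, 1165 and 648 on the Ly6G- arrays. These groups did not overlap, and neither did those of its other probe set, 1448407_at, with 1999, 1014 and 1283 on the Ly6G+ arrays, against 673, 776 and 667 on the Ly6G- arrays. The log2 fold changes were 1.26 ± 0.38 and 0.95 ± 0.32 (SE), each with an adjusted p = 0.836 by limma. Nectin2, a ligand of the CD226 and TIGIT receptors that was named after its values were seen, had 403, 322 and 175 on the Ly6G+ arrays, against 498, 668 and 861 on the Ly6G- arrays, with -1.17 ± 0.37. Its second probe set had -0.41 ± 0.34. Icam1, an adhesion ligand of T cells, had -0.59 ± 0.34. Of the 11 genes, Cd276 was above the filter's percentile on 0 Ly6G+ arrays and on 3 Ly6G- arrays. It was thus tested only because of the group in which it was higher, and no p is given for it. Cd276 still counts among the 11 and in the list's medians.

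The receptors that answer these ligands are T cell genes in the first place, but dendritic cells make some of them. Of 7, 6 had a kept probe set and 0 were called by limma, with a median of -0.85. Groups did not overlap for 3 with Ly6G+ DC lower (7.24% of all kept probe sets) and for 1, Cd28, with Ly6G+ DC higher (4.49% of all). Tnfrsf9, which encodes 4-1BB, was bright, with 13038, 9435 and 3532 on the Ly6G+ arrays, against 15212, 13949 and 16240 on the Ly6G- arrays, and a log2 fold change of -0.99 ± 0.47 (SE). The groups did not overlap for it, nor for its dim probe set 1421481_at, with 56.2, 40.5 and 43.9 on the Ly6G+ arrays, against 123, 126 and 144 on the Ly6G- arrays (-1.23 ± 0.40). The other probe set, 1428034_a_at, had 0.054 ± 0.68, and without Ly6G+ DC 3 the value of the bright one was -0.45. Tnfrsf4, which encodes OX40, had -0.71 ± 0.36. The receptors of CD80 and CD86 were read at low signals. Cd28 had a mean of 211 ± 61.1 over the Ly6G+ arrays, against 93.8 ± 32.2 over the Ly6G- arrays, and Ctla4 31.2 ± 25.5 over the Ly6G+ arrays, against 91.7 ± 19.2 over the Ly6G- arrays (SD, n = 3 each). The log2 fold change of Cd28 was 1.06 ± 0.39 (SE). Cd28 and Ctla4 were both named after their values were seen. Ctla4 was above the 40th percentile on 1 Ly6G+ array and on 3 Ly6G- arrays, so it was tested only because of the group in which it was higher, and no p is given for it. It still counts in the list's median and in its count of genes without overlap.

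Genes downstream of CD40 and genes of dendritic cell maturation had mostly negative values as deposited. Of 9 kept genes of CD40 signalling, 8 had negative values with a median of -0.28, and 0 were called. After median scaling 4 were negative with a median of 0.039, which was -0.20 against the median of all. Relb, a transcription factor of the non-canonical NF-kB pathway, had -0.51 ± 0.33 and Birc3, an inhibitor of that pathway and of cell death, 0.15 ± 0.30 (SE). Of 9 kept maturation genes, 8 were negative with a median of -0.76, 4 had no overlap between groups with Ly6G+ DC lower (7.24% of all kept probe sets), and 0 were called. At an unadjusted p under 0.05, 2 were lower (2.87% of all), and both were named for it. Ccr7, a chemokine receptor that leads maturing dendritic cells towards lymph nodes, had 5865, 4227 and 4080.4 on the Ly6G+ arrays, against 10131, 6096 and 12719 on the Ly6G- arrays, with -0.98 ± 0.37 (SE). Serpinb6b, a serpin, had 1124, 2145 and 1989 on the Ly6G+ arrays, against 2209, 2975 and 5754 on the Ly6G- arrays, with -0.99 ± 0.41. Neither overlapped between groups. After median scaling 6 were negative with a median of -0.43. As deposited, Fscn1, an actin-bundling protein of dendrites, had -1.18 ± 0.63 and Ccl22, a chemokine for T cells, -0.76 ± 0.39, and these were the 2 brightest. Values nearer to zero were those of Ccl17 (-0.14 ± 0.36), Il12b (-0.26 ± 0.35) and Il4i1 (0.11 ± 0.59), whose groups overlapped. With the hybridization control block, Fscn1 had -0.62 ± 0.30, Ccl22 -0.61 ± 0.27, Ccr7 -1.05 ± 0.30 and Serpinb6b -0.75 ± 0.33 (SE). The bright genes H2-Aa and Cd74 of the sort list had -1.30 and -1.02 with the group alone, and -0.61 and -0.63 with that block. The others kept in that list were smaller with the group alone. Itgax, which encodes CD11c, H2-Ab1 and H2-Eb1 had -0.49, -0.57 and -0.47, and -0.59, -0.56 and -0.42 with the block.

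Neutrophil markers went with the sort. All 11 kept neutrophil markers had all Ly6G+ arrays above all Ly6G- arrays, where 4.49% of all kept probe sets were so, with a median log2 fold change of 3.53. Their summed signal was 69214 to 93967 over the Ly6G+ arrays, against 2343 to 13364 over the Ly6G- arrays, and S100a8 and S100a9, which form calprotectin, had 3.53 ± 0.52 and 4.07 ± 0.65 (SE). By limma 0 of the 11 were called, and all 11 were higher at an unadjusted p under 0.05, against 2.75% of all. Of the 11, 4 (Camp, Cxcr2, Stfa2l1 and Padi4) were above the 40th percentile on at most 1 Ly6G- array and so were tested only because of the Ly6G+ arrays, and their counts support nothing. The adjusted p of S100a8 was 0.185 and that of S100a9 0.238 by limma. Of 10 T and NK lymphocyte markers 4 were kept, with 0 called, a median of -0.80 and sums of 536 to 1148 over the Ly6G+ arrays, against 1494 to 1913 over the Ly6G- arrays. Cd3d, Cd3e and Cd3g, which define T cells, had no kept probe set. Zap70, with 1 of 3 probe sets kept, and Klrd1 had -1.42 ± 0.51 and -0.86 ± 0.33. Ncr1 and Cd5 had -0.74 ± 0.57 and -0.04 ± 0.49. After quantile normalization and after median scaling 3 of the 4 were negative, with medians of -0.73 and -0.50. B lymphocyte markers, of interest because B cells make CD40, CD80, CD86 and ICOSL, had 6 of 8 kept, with 0 called, a median of -0.12 (0.047 after quantile normalization and 0.14 after median scaling) and sums of 569 to 747 over the Ly6G+ arrays, against 649 to 1039.6 over the Ly6G- arrays. Of these, Cd22 and Ms4a1 had -0.01 ± 0.40 and -0.75 ± 0.38. Of 10 macrophage markers 9 were kept, with 0 called, a median of 0.12 and sums of 33020.1 to 45033 over the Ly6G+ arrays, against 29791 to 56717 over the Ly6G- arrays. Of the 9, 5 had positive and 4 negative log2 fold changes. Csf1r and C1qb, named as the 2 brightest, were among the negative ones, with -0.08 ± 0.45 and -0.36 ± 0.56. The part of these cells in the ligand values was not tested.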

How the data were processed

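The deposited table held linear signal intensities per probe set, with a mean of 250.0 on each array after trimming 2% at either end, as measured in the table. MAS5, GCOS and Affymetrix Expression Console 2.0 are named in the submitters' processing notes, without further settings. As an algorithm MAS5 corrects each probe by its mismatch partner, so dim probe sets are noisy, and scaling to a mean lets very bright probe sets shift the rest. No detection calls were used here, and the number of arrays limits the precision.

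Signals were analysed as log2(signal + 16), which understates changes of dim genes. The 64 control probe sets were left out of the tests. The test was that of limma 3.58.1 (R 4.3.3; lmFit, then eBayes, trend over intensity), with the group alone as term, and Benjamini-Hochberg adjustment over the 28254 kept probe sets. Of the 45101 probe sets, 34958 had 1 symbol, 932 several and 9211 none. All 9 ligand genes matched RefSeq's gene table (GRCm38.p6) by Entrez identifier. Signals carry the SD over 3 arrays and log2 fold changes limma's standard error.

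Hybridization controls were 18 spiked-in probe sets, and arrays were split at the widest gap in their mean log2 signal. The alternatives were pseudocounts of 1 and 64, quantile normalization, scaling by the median, leaving out the filter or raising it to the 60th percentile, robust variances, no trend, 3 blocks (replicate number, hybridization side, array name), 1 probe set per gene and leaving out each array. The script was tested on simulated data. The members, lists, named genes and the hybridization split were chosen with earlier results of these data known. Of each list, genes past the threshold were to be named or else its 2 brightest, and for each ligand gene the 2 genes with the most alike profile.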

Additional observations from a re-analysis of the deposited data

How the results depend on the processing

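Over 18 alternatives, 0 ligand probe sets were called by limma in any, and the smallest adjusted p among them was 0.294. The number of all probe sets called was 0 with the group alone, 19 with the replicate block and 21 with the array name block, and 0 to 24 when 1 array was left out: leaving out Ly6G- DC 1 gave 24, and leaving out Ly6G+ DC 2 or Ly6G- DC 2 gave 1 each. Among these were S100a8 and S100a9 with the replicate block (adjusted p = 0.0175 for both). The replicate block called 0 ligand probe sets, and its smallest adjusted p among them was 0.421. Deviations from the group means correlated across probe sets with r = 0.52, 0.26 and -0.043 between arrays numbered 1, 2 and 3, and not every array correlated best with its own number, so the numbers were not taken to pair the arrays. Negative ligand values numbered 9 of 15 with the common median scaling and 9 of 9 with 1 probe set per gene, and 12 to 15 with 1 array left out. The ligand median was -0.023 with the common median scaling and ran from -0.58 to -0.18 with 1 array left out.

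Of the 15 kept ligand probe sets, 8 kept their sign in every alternative run and 7 changed it in 14 of 263 values in all. Cd40 1460415_a_at (0.01) had -0.23 with the hybridization control block and -0.23 to 0.29 with 1 array left out. With the common median scaling, Cd80 1432826_a_at had 0.19, Cd80 1451950_a_at 0.19, Cd274 0.016, Icosl 1426087_at 0.085 and Tnfsf9 0.071. Icosl 1426087_at had 0.073 with quantile normalization. With 1 array left out, Cd80 1451950_a_at ranged from -0.44 to 0.17 and Cd86 1449858_at from -0.72 to 0.036. Of the other genes named, Cd22 had 0.019 with quantile normalization, 0.30 with the common median scaling and 0.17 with the hybridization control block, and -0.23 to 0.39 with 1 array left out. Csf1r had 0.19, 0.25 and 0.15 in these fits and -0.32 to 0.32, C1qb 0.10 with the hybridization control block and -0.85 to 0.20, and Birc3 -0.035 to 0.24. The cause was not tested. Alternatives for the sign counts and for genes outside the ligands were added after seeing the data.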

Other observations

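The genes whose profiles over the 6 arrays were most like those of the ligands were found by the root mean square difference between centred log2(signal + 16) values, among 13253 genes. Nearest to Cd80 1451950_a_at were Slc35f6 (0.034) and Gnb5 (0.092), to Cd274 Ttc19 (0.040) and Wiz (0.069), and to Cd83 Zbtb8a (0.069) and AA388235 (0.082). Nearest to Cd86 1420404_at were Elovl3 (0.060) and Gsg1 (0.070), and to Pdcd1lg2 Emd (0.079) and Unc80 (0.088). Tnfsf4 had Rabgap1l (0.043) and Nfat5 (0.067), and Tnfsf9 had H2-D1, an MHC class I heavy chain, (0.060) and Exoc4 (0.067). Cd40 1449473_s_at and Icosl 1419212_at had no gene as close, with Htr5a (0.14) and Lypd6 (0.16) for Cd40 and 2610037D02Rik (0.11) and Crtc2 (0.14) for Icosl. The measure is not scaled to how much a profile itself varies, here or among the ligands. The SD over the 6 arrays was 0.71 for Cd40 and 0.60 for Icosl, but 0.32 for Tnfsf4 and 0.26 for Tnfsf9. Among the ligands themselves, Tnfsf4 and Tnfsf9 were nearest to each other (0.14), and Pdcd1lg2 was nearest to Tnfsf4 (0.16), Cd83 to Pdcd1lg2 (0.18), Cd86 to Tnfsf4 (0.18), Cd274 to Tnfsf9 (0.17) and Cd80 to Cd274 (0.17). With 6 arrays that share a scaling and a hybridization split, and so many genes to choose from, close profiles are described only as such.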
